A study of Mus musculus with 6 samples.

Results

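The genes of the cytosolic ribosomal proteins were followed in mouse immature dendritic cells (imDCs), cells that sample antigen before they mature, kept with or without fluid shear stress (FSS), the drag of moving fluid on a cell. They were taken as the gene symbols made of Rpl, Rps or Rplp and a number, with or without a closing letter, plus Rpsa. Among the 22899 genes deposited by the authors, 85 symbols matched, and 84 carried values, 52 of the large subunit and 32 of the small one. Rpl10l was blank in all libraries. Of the 84, 81 (49 large, 32 small) reached 1 FPKM in at least 3 libraries and were tested. FPKM scale the fragments counted for a gene by the length of its transcript and by all mapped fragments of its library.

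The FSS group comprised 3 libraries of imDCs sheared at 10 dyn/cm2 for 3 h in a cone-plate device, in which a cone turns over the dish. The static group comprised 3 libraries of imDCs cultured without shear. Male C57BL/6 mice, 7 weeks old, gave the marrow for both groups. IL-4 at 10 ng/ml and GM-CSF at 20 ng/ml were in the medium during 7 days of culture, after which cells were selected by CD11c, an integrin subunit of dendritic cells. Libraries are numbered 1 to 3 in each group. The labels do not say whether the numbers stand for separate mice or cultures, so that p-values measure only the spread between these libraries, which may be technical. They name no genetic change.

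Each cytosolic ribosome joins a small subunit, which reads the mRNA, to a large subunit, which forms the peptide bond. Their proteins are made in step with each other, and most of them are encoded by very abundant, short mRNAs. These mRNAs begin with a C followed by a run of pyrimidines, the 5′ terminal oligopyrimidine (TOP) motif, through which the kinase complex mTORC1 and the RNA-binding protein LARP1 control their translation and stability. Subunits in excess are usually broken down, so an mRNA level alone does not give the number of ribosomes.

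Start-site sequences are shown for 4 genes that were higher and 2 that were lower under FSS in a fit with the replicate number as a block, to set the TOP run beside the genes that moved. Each is a window of 30 bases, 15 before the annotated start and 15 from the start on, from RefSeq on GRCm38.p6. The build used by the authors is not given in the sources used here. Capitals mark a C followed by at least 4 pyrimidines (C or T) that begins within 10 bases of the start on the transcribed strand.
Rpl28 (chr7:4792950-4792979, + strand): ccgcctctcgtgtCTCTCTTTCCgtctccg
Rplp0 (chr5:115559452-115559481, + strand): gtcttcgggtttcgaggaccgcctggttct
Rps9 (chr7:3704026-3704055, + strand): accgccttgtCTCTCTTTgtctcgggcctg
Rpl36a (chrX:134585639-134585668, + strand): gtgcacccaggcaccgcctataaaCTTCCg
Rps27l (chr9:66946071-66946100, + strand, the upstream of its listed starts): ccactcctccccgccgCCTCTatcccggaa
Rpl7l1 (chr17:46782642-46782671, - strand): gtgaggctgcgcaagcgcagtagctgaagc
Of these 6, Rpl28 had the longest run, and neither Rplp0, which rose, nor Rpl7l1, which fell, had a run in its window. Rplp2 and Rps12, which also rose, had a run and are not printed. Among the 64 ribosomal protein genes with a start in the RefSeq table, 38 (59.4%) held such a run near at least 1 start, 23 of 40 of the large subunit and 15 of 24 of the small. Over all 27025 genes with a start the share was 31.5%. The median log2 difference between FSS and static libraries was 0.10 over the 35 tested genes with a run and 0.085 over the 26 without. An annotated start need not be the base where the transcript begins in these cells, which was not measured. A run that crosses the start but begins more than 10 bases before it was not counted. Genes with and without a counted run are therefore not the same as genes with and without a TOP motif.

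The ribosomal protein mRNAs were among the more abundant mRNAs of the cells. Over the 81 tested genes, the mean over all 6 libraries ran from 21.8 to 1762 FPKM with a median of 542 FPKM, and 65 genes stood at 300 FPKM or more. The medians were 519 FPKM for the large subunit and 671 FPKM for the small. Rpl41, which encodes the shortest protein of the large subunit, was highest, followed by Rpl28 and Rpl10. The low end held Rps6, Rpl7l1, Rpl22, Rpl22l1, Rps15a and Rps20, all under 100 FPKM. Rps6, whose product is the classic substrate of the S6 kinases, had 19.5, 18.9 and 25.7 FPKM in FSS replicates 1, 2 and 3, against 20.7, 19.3 and 26.5 FPKM in static replicates 1, 2 and 3. The counting is uncertain, since 63 of the 84 genes have pseudogenes named after them in RefSeq (316 in all). How the authors treated reads shared with such copies is not given in the sources used here. Rps6 has 4 of them, Rps15a 8, Rpl7l1 and Rpl22 1 each, and Rpl22l1 and Rps20 0. Rps12 and Rpl31, with 23 each, had means of 681 and 354 FPKM over all 6 libraries. The part of pseudogenes in these levels was not tested. Rps6 and Rpl7l1 held the 2 lowest places among the tested members in each library.

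The 3 genes with values that were too low to be tested are paralogs. Rpl3l, the striated muscle form of Rpl3, had 0.53 to 1.15 FPKM in FSS libraries and 0.46 to 0.57 FPKM in static libraries. Rpl39l, a form of Rpl39 best known from testis, had 0.08 to 0.35 FPKM in FSS and 0.10 to 0.35 FPKM in static libraries. Rpl32l was listed at 0 in 5 libraries and at 0.05 FPKM in static replicate 3.

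Under FSS the ribosomal protein genes stood slightly above their static level, by a median log2 difference of 0.11 or 1.08-fold, while the median of all 10899 genes tested was -0.12. The difference was above 0 for 73 of 81 members, 90.1%, against 34.2% of all genes tested. It was small for each gene: 79 of the 81 lay within 0.3 of 0 on the log2(FPKM + 1) scale. Relative to the median of all genes the members stood 0.22 higher on the log2 scale as deposited, 0.25 higher after scaling by median ratios, which moved the median of all genes to 0.020, and 0.23 higher with library totals made equal. The 567 other genes tested at 100 FPKM or more had a median difference of -0.13 as deposited. Leaving out FSS replicate 3 turned the members' median to -0.036, and leaving out static replicate 3 made it 0.23. In bulk RNA, fewer cells of a type and less RNA per cell cannot be told apart.

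No member passed the test of FSS against static over all genes. With limma and Benjamini-Hochberg adjustment over 10899 genes, 0 of 81 were higher, against 0.853% of all genes tested, and 0 were lower, against 0.862%. The smallest adjusted p among them was 0.17. At an unadjusted p under 0.05, 0 members were higher, with 4.27% of all genes, and 2 were lower, with 13.8% of all genes. The groups did not overlap for 4 members higher under FSS, Rpl22, Rpl36a, Rpl4 and Rpl7 (4.94%, with 5.1% of all genes), and for 2 members lower, Rpl7l1 and Rps27l (2.47%, with 20.4% of all genes). The first share lies near that of all genes.

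Within replicate numbers, 49 of 81 members were higher under FSS in all 3 pairs (60.5%), against 17.1% of all genes tested. Another 26 were higher in 2 pairs, 3 in 1 pair and 3 in none. The members lower in all 3 pairs were Rpl7l1, Rps27l and Rps6 (3.7%), against 47.3% of all genes. The median difference of the members was 0.11, 0.080 and 0.12 in pairs 1, 2 and 3, where that of all genes was -0.079, -0.069 and -0.22. After median-ratio scaling 79 members lay above 0 (97.5%, with 52.8% of all genes), 75 were higher in all 3 pairs (92.6%, with 34.6%) and 2 were lower in all 3 (2.47%, with 30.1%). Groups did not overlap on that scale for 12 members higher (14.8%, with 10.9% of all genes) and 2 lower (2.47%, with 12.3%). With totals made equal 78 members lay above 0 (96.3%, with 41.5% of all genes), 65 were higher in all 3 pairs (80.2%, with 23.4%) and 2 lower (2.47%, with 40.7%). There the groups did not overlap for 15 members higher (18.5%, with 6.34% of all genes) and 2 lower (2.47%, with 16.0%). The lower members were Rpl7l1 and Rps27l under both scalings.

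**Figure D1:**
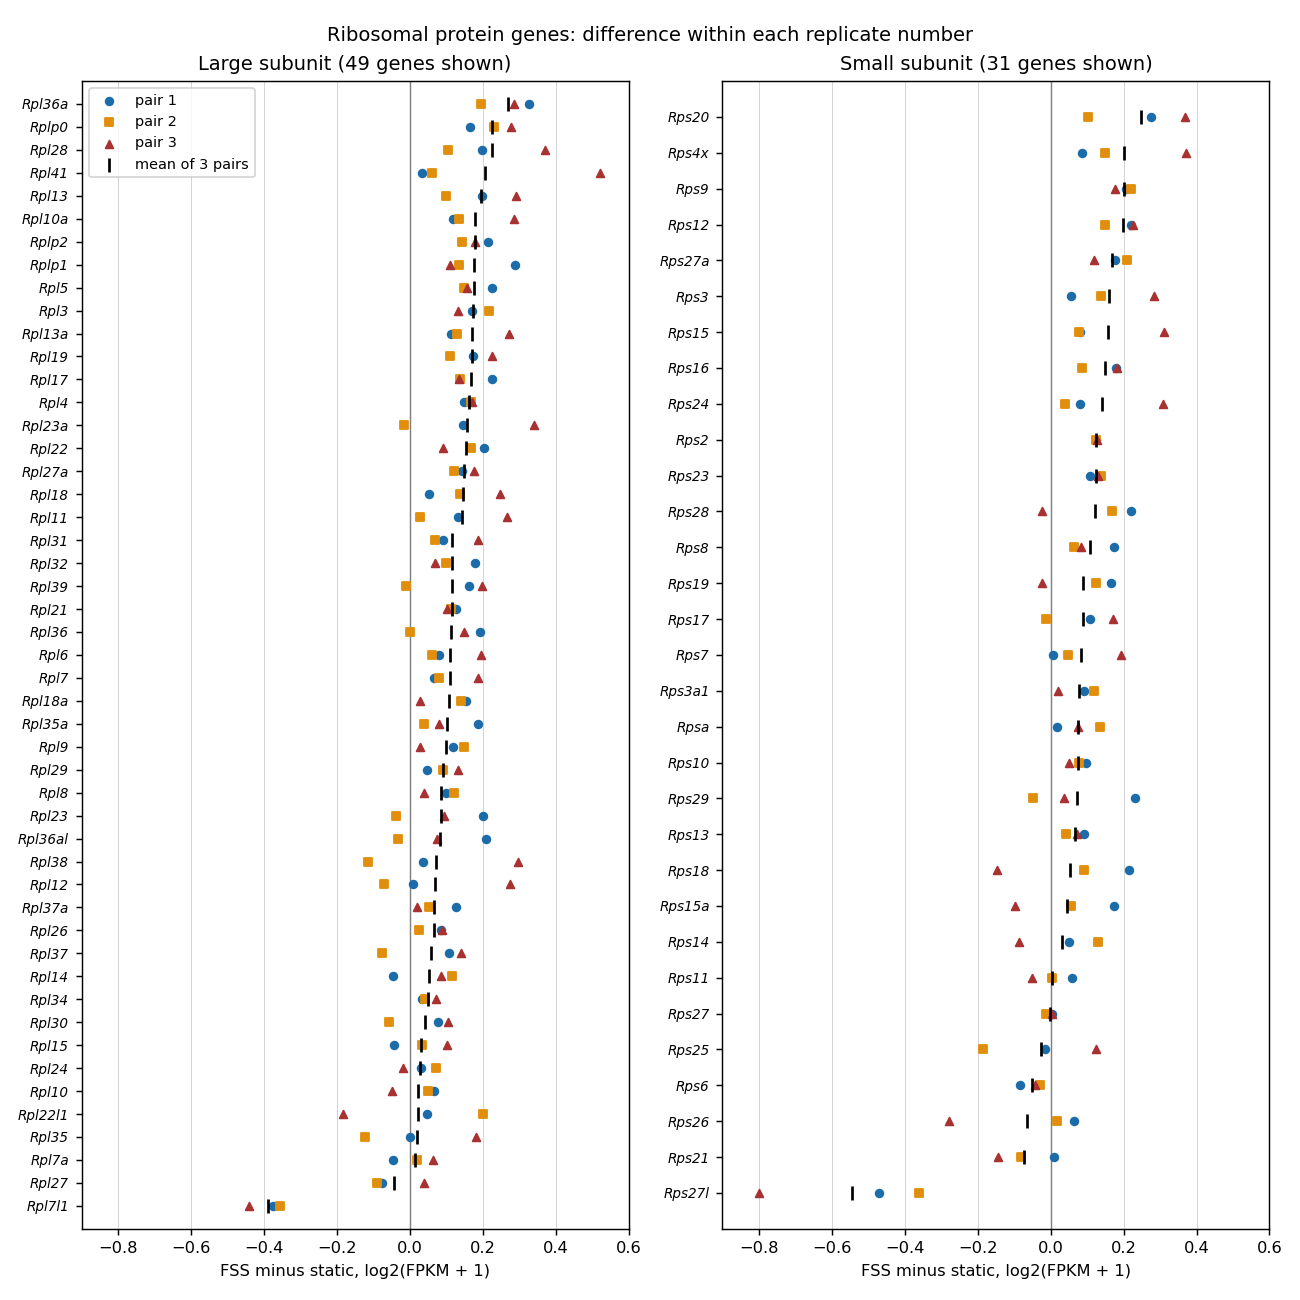
Difference FSS minus static on the log2(FPKM + 1) scale (x axis) for the 49 large-subunit and 31 small-subunit genes shown, with a point for each replicate pair and a bar for their mean. Most points lie between 0 and 0.3, and Rpl7l1 and Rps27l stand apart on the negative side in all 3 pairs.

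With the replicate number as a block in limma, 7 members rose under FSS (8.64%, with 7.73% of all genes tested) and 2 fell (2.47%, with 25.1%). The share that rose lies near that of all genes, and the share that fell lies under it. Among those that rose were Rplp0 and Rplp2 of the stalk, Rpl28 and Rpl36a of the large subunit, and Rps9 and Rps12 of the small subunit. Under the block all 7 passed again once libraries were scaled by median ratios, where 19 members rose (23.5%, with 19.2% of all genes) and Rps27l alone fell (16.8% of all genes). The same 7 passed in the block fit with equal totals, where 22 members rose (27.2%, with 10.7% of all genes) and Rpl7l1 and Rps27l fell (21.2% of all genes). Leaving out a pair from the block fit left 5 members that rose without number 1, 3 without number 2 and 1 without number 3, which was Rpl36a. The shares of all genes in these smaller fits are not given, so these counts are not read as a result about the members. Across the 81 members, differences correlated (Spearman) by 0.47 between pairs 1 and 2, 0.23 between 1 and 3, and 0.21 between 2 and 3. Over all genes tested these values were 0.82, 0.71 and 0.66, so the order of members repeated less from pair to pair. The members' mean differences also lay closer together, with quartiles of 0.054 and 0.16 against -0.32 and 0.082 for all genes. The part of this narrower range in the lower correlations was not tested.

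The stalk is the arm of the large subunit that recruits the elongation factors, built of Rplp0 at its base with Rplp1 and Rplp2 dimers on it. Rplp0 had 798, 832 and 1256 FPKM in FSS replicates 1, 2 and 3, against 711, 708 and 1036 FPKM in static replicates 1, 2 and 3. Its log2 difference was 0.22, with an adjusted p of 0.022 in the block fit and 0.71 without the block (limma). Each FSS library stood above the static library of its number, and the groups overlapped, since static replicate 3 was higher than FSS replicates 1 and 2. Rplp2 had 770, 790 and 1302 FPKM under FSS and 664, 714 and 1150 FPKM in static cells, with a difference of 0.18 and a block adjusted p of 0.045. Rplp1, with 857, 854 and 1407 FPKM under FSS and 702, 778 and 1304 FPKM in static cells, differed by as much (0.18) and missed the threshold (block adjusted p 0.061), though it passed once median-ratio scaling (0.042) or equal totals (0.027) were added to the block. All 3 stalk genes were higher under FSS in each pair and highest in number 3 of both groups. With FSS replicate 3 left out and static replicate 3 kept, the difference was 0.017 for Rplp0, -0.067 for Rplp2 and -0.062 for Rplp1.

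Of the other large-subunit genes, Rpl36a, whose product lies near the exit site for transfer RNA, had the largest rise among the 81. It had 233, 237 and 267 FPKM in FSS replicates 1, 2 and 3, against 186, 207 and 219 FPKM in static ones, a mean of 245 ± 18.5 FPKM under FSS and 204 ± 16.7 FPKM in static cells (SD, n = 3 each). The groups did not overlap, and the difference of 0.27 ± 0.16 (SE) had an adjusted p of 0.43 without the block and 0.027 with it. Its close copy Rpl36al, which may share reads with it, had 170, 169 and 180 FPKM under FSS and 147, 173 and 171 FPKM in static cells, with overlapping groups (block adjusted p 0.45). Rpl28 had 944, 991 and 1624 FPKM under FSS and 823, 921 and 1255 FPKM in static cells (difference 0.22, block adjusted p 0.037). With FSS replicate 3 left out and static replicate 3 kept, its difference was -0.024.

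Rpl41, the highest gene, had 1397, 1487 and 2885 FPKM in FSS replicates 1, 2 and 3 and 1366, 1425 and 2009 FPKM in static ones. FSS replicate 3 was above every other library, the difference without it was -0.13, and the difference of 0.21 did not pass with the block (adjusted p 0.13). Rpl5 and Rpl11, which form the 5S particle of the large subunit and can bind MDM2 when free, differed by 0.18 and 0.14 and did not pass with the block (adjusted p 0.068 and 0.16); with median-ratio scaling added Rpl5 passed (0.032) and Rpl11 did not (0.077). Rpl10, which is loaded last onto the large subunit, stood at 1069 ± 134 FPKM under FSS and 1057 ± 180 FPKM in static cells, a difference of 0.023. Rpl3, which shapes the peptidyl transferase centre, Rpl4, which lines the exit tunnel, and Rpl13a, best known in human cells for leaving the ribosome to silence inflammatory mRNAs, had differences of 0.17, 0.16 and 0.17. None of these passed the block fit, at adjusted p of 0.072, 0.077 and 0.074. With median-ratio scaling added the values were 0.032, 0.042 and 0.056, and with equal totals all 3 passed, at 0.027, 0.031 and 0.038.

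In the small subunit, Rps9, which sits where the mRNA enters and bears on decoding accuracy, had 708, 705 and 877 FPKM under FSS and 612, 605 and 776 FPKM in static cells (difference 0.20, block adjusted p 0.034). Rps12, of the beak of the small subunit, had 653, 674 and 856 FPKM under FSS and 560, 609 and 732 FPKM in static cells (difference 0.20, block adjusted p 0.038). In both Rps9 and Rps12, static replicate 3 lay above FSS replicates 1 and 2, so that the groups overlapped. Rps12 has 23 named pseudogenes, the most of any member together with Rpl31. Rps20 of the head (0.25) and the X-linked Rps4x (0.20) had differences of that size but missed the threshold with the block, at adjusted p of 0.069 and 0.066. With median-ratio scaling added the values were 0.017 and 0.054, and with equal totals both passed, at 0.034 and 0.039.

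Of the 32 small-subunit genes, 26 lay above 0. Those below it, beside Rps27l, were Rps6, Rps21, Rps25, Rps26 and Rps27, and none of these 5 passed. Rps27 had 864, 787 and 925 FPKM under FSS and 861, 793 and 923 FPKM in static cells (difference -0.00085). Rps21 (-0.072), Rps26 (-0.065) and Rps6 (-0.052) were below 0 and had adjusted p of 0.46, 0.55 and 0.68 with the block. All 5 were above 0 after median-ratio scaling, and all but Rps21 with totals made equal. Rpsa, also known as the laminin receptor, and Rps19, the gene most often mutated in human Diamond-Blackfan anaemia, differed by 0.076 and 0.089, with block adjusted p of 0.36 and 0.35.

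**Figure D2:**
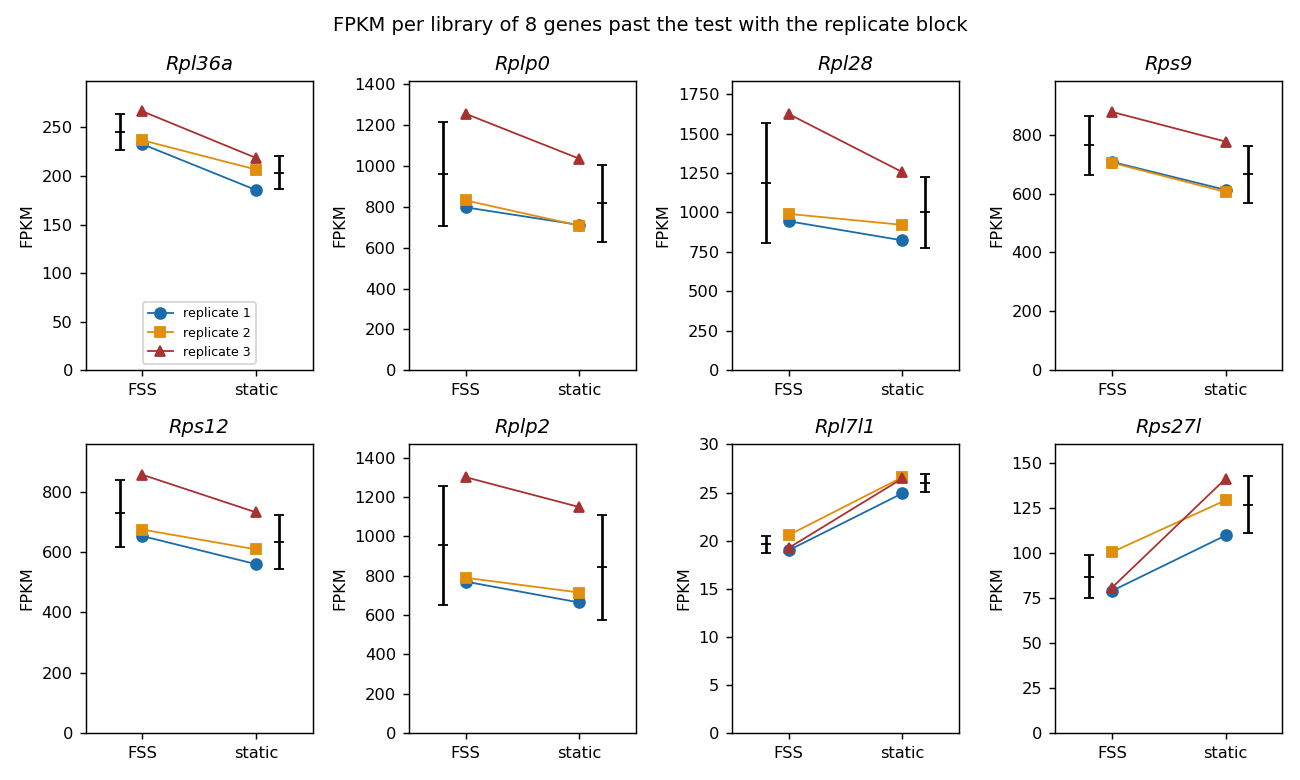
FPKM (y axis, from 0) of 6 genes that rose and the 2 that fell with the replicate block, FSS at the left of each panel and static at the right, with a line joining the libraries of the same number; bars beside them are mean ± SD (n = 3). In Rpl7l1 and Rps27l all FSS libraries lie below all static ones, while in all of the others but Rpl36a replicate 3 of the static group lies above replicates 1 and 2 of the FSS group.

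The 2 members that fell in the block fit are both paralogs of another ribosomal protein gene. Rps27l, a close relative of Rps27 known in human cells as a p53 target, had 78.9, 100.4 and 80.7 FPKM in FSS replicates 1, 2 and 3, against 110, 129 and 141 FPKM in static replicates 1, 2 and 3. The groups did not overlap, and the FSS mean was 0.684 times the static mean. The difference was -0.54 ± 0.18 (SE), with an adjusted p of 0.17 without the block and 0.0075 with it. With any 1 library or pair left out, the difference ran from -0.65 to -0.42. Rpl7l1, a nucleolar relative of Rpl7 that takes part in assembly of the large subunit, had 19.0, 20.6 and 19.2 FPKM under FSS and 24.9, 26.6 and 26.5 FPKM in static cells. Its groups did not overlap either; the FSS mean was 0.754 times the static mean, and the difference of -0.39 ± 0.15 had an adjusted p of 0.21 without the block, 0.015 with it and 0.055 when median-ratio scaling was added to the block. Their relatives lay elsewhere. Rpl7, a large-subunit protein, had 529, 556 and 560 FPKM under FSS and 505, 526 and 492 FPKM in static cells, with all FSS libraries above all static ones (block adjusted p 0.21). Rpl22 had 30.4 ± 0.677 FPKM under FSS and 27.2 ± 1.69 FPKM in static cells, and its paralog Rpl22l1 had 36.1 ± 1.29 FPKM under FSS and 35.7 ± 4.20 FPKM in static cells (SD, n = 3 each). Neither passed with the block (adjusted p 0.22 and 0.88). With median-ratio scaling added to the block Rpl22 passed (0.019) and Rpl22l1 did not (0.13), and with equal totals neither passed (0.079 and 0.51).

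Together the 84 genes made up 9.86%, 9.98% and 13.0% of the summed FPKM in FSS replicates 1, 2 and 3, against 8.73%, 9.24% and 10.9% in static replicates 1, 2 and 3. FSS was above static in every pair, by 1.13, 1.08 and 1.19 times. The groups overlapped, since the share of static replicate 3 exceeded those of FSS replicates 1 and 2, and the means were 10.9 ± 1.78% under FSS and 9.63 ± 1.13% in static cells (SD, n = 3 each). The summed FPKM of all genes was lower in the FSS library of each pair, at 0.958, 0.975 and 0.933 times the static sum, which enters these shares.

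**Figure D3:**
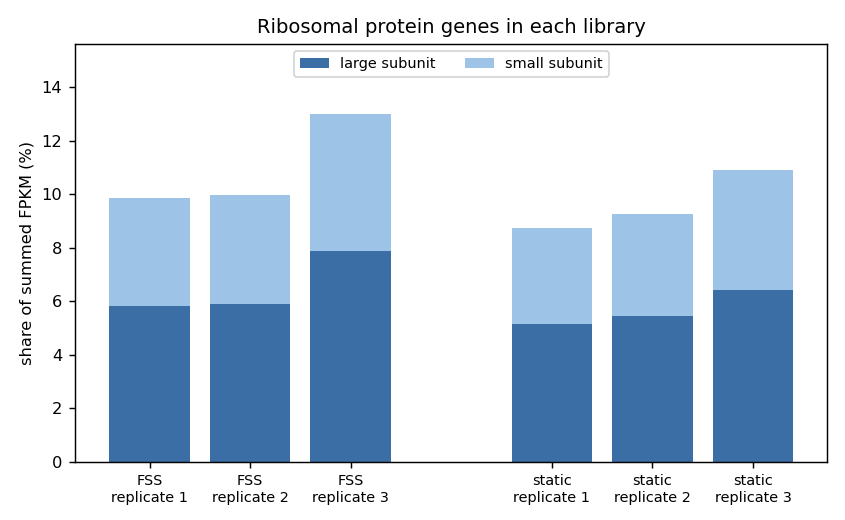
Share of the summed FPKM (y axis, percent) held by large-subunit and small-subunit genes in each library, FSS at the left and static at the right. Replicate 3 is the highest of its group in both, at 13.0% under FSS and 10.9% in static cells for both subunits together.

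The median log2 difference between FSS and static libraries was 0.11 over the large-subunit genes and 0.085 over the small-subunit ones, and 47 of 49 large-subunit genes and 26 of 32 small-subunit genes lay above 0. By pair the medians were 0.12, 0.080 and 0.14 for the large subunit and 0.094, 0.082 and 0.079 for the small one. With the block 4 large-subunit genes (8.16%) and 3 small-subunit genes (9.38%) rose, near the 7.73% of all genes. In each subunit 1 gene fell (2.04% and 3.12%, with 25.1% of all genes). The summed FPKM of the large subunit over that of the small one was 1.44, 1.43 and 1.53 in FSS replicates 1, 2 and 3, against 1.43, 1.44 and 1.43 in static ones. FSS replicate 3 stood above the other 5 libraries in that ratio. The difference between the subunit medians was 0.026 and ran from -0.044 to 0.041 over the fits that leave out a library or a pair, and was not tested.

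More members passed between replicate numbers than between FSS and static cells. The contrast of number 3 was chosen because its libraries stood apart in earlier results of these data, so its counts only describe the spread of replicates. In limma with the group in the model, 51 of 81 members (29 large, 22 small) were higher in number 3 than in numbers 1 and 2, 63.0%, against 13.7% of all genes tested; 0 were lower, against 29.3% of all genes. The median difference was 0.36, or 1.28-fold, where the median of all genes was -0.12. It was 0.39 within FSS and 0.36 within static libraries, and across the 81 genes the offsets within the FSS and the static group correlated (Pearson 0.81, Spearman 0.82; genes are not independent replicates). The offset was largest for Rplp1 (0.77), Rpl41 (0.76), Rps3 (0.74) and Rplp2 (0.74), and lowest for Rpl21 (-0.16), which had 119, 127 and 109 FPKM in FSS replicates 1, 2 and 3, against 109, 117 and 102 FPKM in static ones. Without FSS replicate 3, 29 of 81 members lay above 0 for FSS minus static. Without both libraries of number 3 the median of that difference was 0.091, with 69 members above 0.

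**Figure D4:**
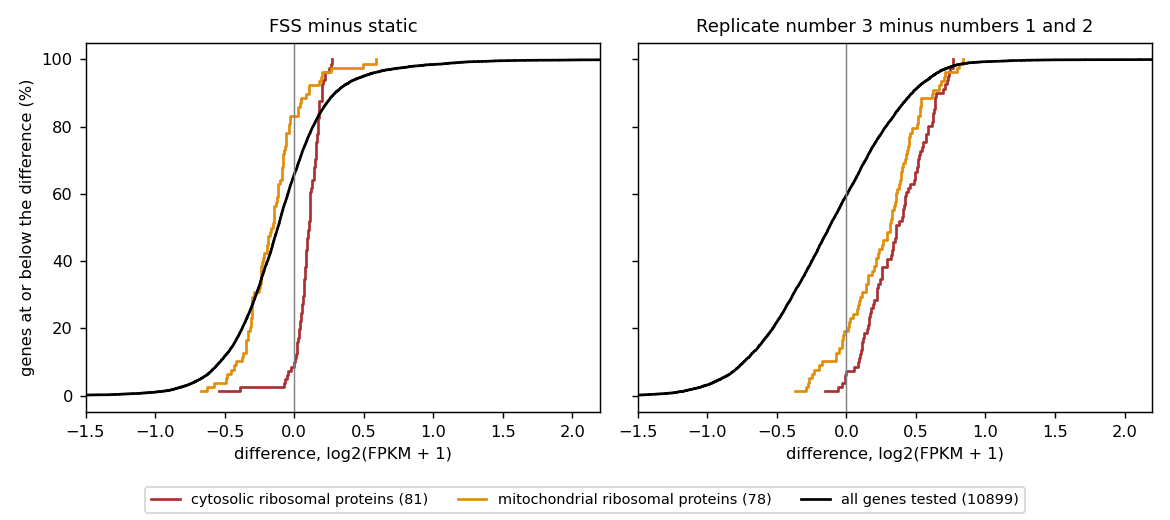
Cumulative share of genes (y axis, percent) at or below a difference on the log2(FPKM + 1) scale (x axis) for FSS minus static at the left and for number 3 minus numbers 1 and 2 at the right. The 81 cytosolic ribosomal protein genes lie right of all genes over most of their range in both panels, and the 78 mitochondrial ones only in the right panel.

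The offset of number 3 moved with base composition. The 27 members of lowest GC content (39.8% to 49.6% of the transcript) had a median offset of 0.20, the next 27 (49.8% to 54.2%) one of 0.35, and the 27 of highest GC content (54.3% to 60.8%) one of 0.58. Across the 81 members the offset and GC content correlated (Pearson 0.53, Spearman 0.58), as they did across 10683 genes with a GC value (0.47 and 0.49); the points share their libraries, and genes are not independent. The same 3 bands had medians of 0.12, 0.073 and 0.14 for FSS minus static, with a correlation with GC content of 0.22 (Pearson) and 0.15 (Spearman). The part of base composition in these values was not tested.

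**Figure D5:**
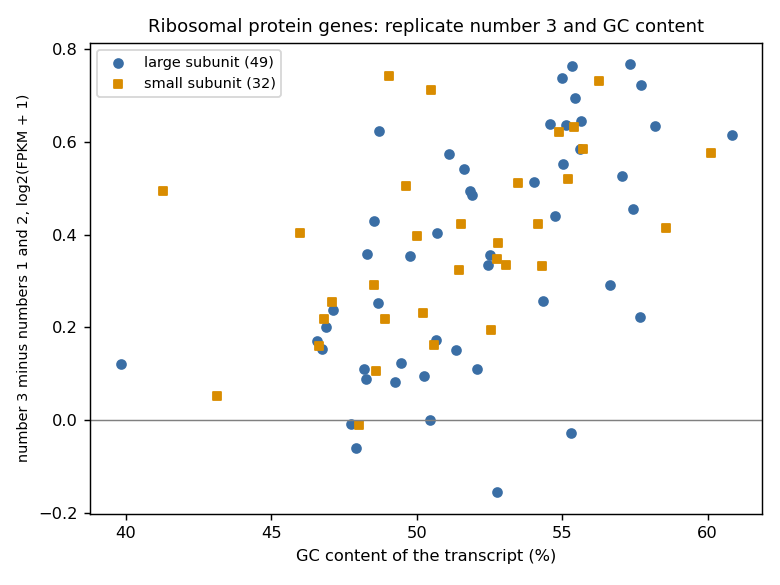
Offset of number 3 against numbers 1 and 2 on the log2(FPKM + 1) scale (y axis) for each of the 81 genes by GC content of its transcript in percent (x axis), circles for the large and squares for the small subunit. Genes of higher GC content lie higher, and the 27 with the highest have a median of 0.58.

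Dendritic cell markers, including Itgax and H2-Ab1, summed to 5879 to 7217 FPKM in FSS and 6509 to 7282 FPKM in static libraries, with Flt3 and Cd209a under the filter. Neutrophil markers summed to 257, 399 and 432 FPKM in FSS replicates 1, 2 and 3 and to 289, 479 and 521 FPKM in static ones, lowest in number 1 and highest in number 3 of both groups. Their part in the offset of number 3 was not tested. Macrophage markers summed to 262 to 388 FPKM in FSS and 264 to 305 FPKM in static libraries, and those of B, T, mast and erythroid cells to at most 14.7 FPKM. None of the markers with values was at 0 in all libraries.

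Genes around the cytosolic ribosome were followed in lists. Of the other ribosome components, Rack1, a scaffold on the small subunit, had a log2 difference of 0.24 and passed with the block (adjusted p 0.031); it had 546, 586 and 1064 FPKM under FSS and 480, 523 and 832 FPKM in static cells. Fau, which encodes a small-subunit protein fused to a ubiquitin-like one, had 865, 841 and 1413 FPKM under FSS and 774, 781 and 1127 FPKM in static cells (block adjusted p 0.0502). Of 78 mitochondrial ribosomal protein genes, which encode the separate ribosome of mitochondria, 0 passed limma without the block. With it 2 rose (2.56%, with 7.73% of all genes) and 19 fell (24.4%, with 25.1% of all genes), and the median was -0.16 with 13 above 0. With median-ratio scaling added to the block, 6 rose (7.69%, with 19.2% of all genes) and 8 fell (10.3%, with 16.8% of all genes). Their median offset in number 3 was 0.32, beside 0.36 for the cytosolic genes. Mrpl36 had 13.2, 12.3 and 13.2 FPKM under FSS and 17.0, 17.9 and 21.0 FPKM in static cells (block adjusted p 0.0096), and Mrpl45 had 18.5, 20.6 and 19.2 FPKM under FSS and 11.7, 13.8 and 15.1 FPKM in static cells (block adjusted p 0.0094).

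Of 12 other mRNAs with a TOP motif, 0 passed without the block. With it 1 rose (8.33%, with 7.73% of all genes) and 0 fell (25.1% of all genes fell). With median-ratio scaling added 4 rose (33.3%, with 19.2% of all genes) and 0 fell (16.8% of all genes fell). Their median difference was 0.11, with 8 of 12 above 0, beside 73 of 81 for the ribosomal protein genes. Eif4b, an initiation factor, had 86.3, 95.2 and 96.7 FPKM under FSS and 70.2, 80.0 and 86.3 FPKM in static cells (block adjusted p 0.063). Among 12 elongation genes the median was -0.092. With the block 3 of the 12 rose (7.73% of all genes rose) and 3 fell (25.1% of all genes fell). The share that fell lies near that of all genes. With median-ratio scaling added 3 rose (19.2% of all genes) and 1 fell (16.8% of all genes). Without the block 1 of the 12 fell (8.33%, with 0.862% of all genes) and 0 rose. The gene that fell was Eef1e1, a scaffold of the aminoacyl-tRNA synthetase complex. It had 11.0, 11.8 and 13.0 FPKM under FSS, against 21.7, 22.5 and 20.5 FPKM in static cells (limma, adjusted p 0.047 without the block). Of 20 genes of mTORC1 and the control of TOP mRNAs, 1 rose without the block (5.0%, with 0.853% of all genes). This was Ddit4, an inhibitor of mTORC1. It had 8.57, 10.0 and 6.51 FPKM under FSS, against 3.89, 2.80 and 3.32 FPKM in static cells (limma, adjusted p 0.042). With the block 3 of that list rose (7.73% of all genes) and 3 fell (25.1% of all genes); with median-ratio scaling added 6 rose and 3 fell (19.2% and 16.8% of all genes).

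A list of 15 tested genes held chaperones, import factors and assembly factors linked to ribosomal proteins, not all of them dedicated to these. Of the 15, 2 fell (13.3%, with 0.862% of all genes) and 0 rose without the block. With the block 4 fell (26.7%, with 25.1% of all genes). With median-ratio scaling added 3 rose (20.0%, with 19.2% of all genes) and 4 fell (26.7%, with 16.8%). Heatr3, which carries Rpl5 into the nucleus, fell to 4.01, 4.03 and 5.13 FPKM under FSS, against 10.5, 10.1 and 12.6 FPKM in static cells (limma, adjusted p 0.026). Znhit3, a factor in the assembly of small nucleolar RNPs, fell to 1.31, 2.09 and 2.27 FPKM under FSS, against 4.55, 5.12 and 6.77 FPKM in static cells (limma, adjusted p 0.042). The groups did not overlap for either. Rpl5 itself had 456, 480 and 515 FPKM under FSS and 390, 434 and 462 FPKM in static cells. Of 10 heat shock genes, 8 rose without the block (80.0%, with 0.853% of all genes), with a median difference of 1.74. Among them was Hspa1b at 1240, 625 and 1055 FPKM under FSS and 8.39, 22.0 and 6.75 FPKM in static cells (limma, adjusted p 0.0040).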

How the data were processed

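RNA of 3 FSS and 3 static imDC libraries was analysed, grouped by the sample titles. HISAT and Bowtie2 are named in the submitters' processing notes; no role, quantifier, build, annotation or strand setting is stated in the sources used here. Per the file headers, the authors deposited an expression value per gene with no unit named. It was taken as FPKM, normalized by the authors to library and length, which is inferred: value times transcript length, summed over 17292 genes, was 0.740 to 0.832 times 1000000000, the size such a sum has for FPKM. The series table equalled the 6 per-sample files. The number of reads per library is unknown, so intervals for counting error cannot be given.

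A gene was tested if 3 libraries or more had at least 1 FPKM, which held for 10899 of 18071 genes. On log2(FPKM + 1), the difference FSS minus static was fitted with limma (version 3.58.1, R 4.3.3) and a variance trend. Tests were two-sided, p-values were adjusted by Benjamini-Hochberg across those genes, and 0.05 was the threshold. A fold on that scale understates the change of low genes. Number 3 was set against numbers 1 and 2 with the group in the model, a contrast chosen from earlier results of these data. The scripts were tested on simulated data.

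What libraries of the same number share is not labelled. Their deviations from group means had correlations over genes of 0.79, 0.66 and 0.87, and the numbers were taken to pair the libraries. The replicate block rests on this pairing, and so on these same data.

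Named are the 8 tested members of smallest p, the 4 largest rises and falls, the 3 highest and lowest levels, a fixed set of members with known roles or paralogs, and up to 3 genes per related list by smallest p. Rps12, Rps15a, Rps25, Rps3, Rpl21, Rpl27 and Rpl31 were added once their values were known. Results of 2 genes are not reported here. The members and lists were chosen with earlier results of these data known. GC content and length are medians over protein-coding GENCODE transcripts of GRCm38, matched by NCBI gene ID (all 81 members).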

Additional observations from a re-analysis of the deposited data

How the results depend on the processing

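Without the block, no alternative gave a call among the members: a pseudocount of 0.1, no filter, no variance trend, median-ratio scaling, totals made equal, or any library left out. With the replicate block, members higher under FSS numbered 7, and members lower 2; with the block and median-ratio scaling they numbered 19 and 1, and with the block and totals made equal 22 and 2. Over the fits that leave out a library or a pair, with and without the block, members higher ran from 0 to 5 and members lower from 0 to 2. A group left with 2 libraries shares the spread estimated over both groups. Chosen after seeing the data were the block with totals made equal, the block without a pair and the contrast of number 3 against numbers 1 and 2. Every fit with the replicate block also rests on a pairing that was taken from correlations in these same data. Without a pair the block fit gave 1 to 5 members higher (3 without number 2) and 1 to 2 lower. For fits that leave out a library or a pair the shares of all genes are not given, so their counts only describe the members. The difference between the subunit medians was 0.026; it ran from -0.044 to 0.041 on leaving out a library or a pair, with 0.039 without static replicate 1 and -0.0042 without number 3. Of the 8 members below 0 as deposited, 6 were above it after median-ratio scaling and 5 with totals made equal, with or without the block: Rps21 (0.089 by median ratio), Rps26 (0.096 by median ratio, 0.00095 by totals), Rps27 (0.16 and 0.065), Rps6 (0.10 and 0.012), Rps25 (0.14 and 0.040) and Rpl27 (0.12 and 0.023). The cause was not tested. On leaving out a library or a pair, the difference changed sign for 15 named members. It ran from -0.067 to 0.43 for Rplp2, from -0.13 to 0.39 for Rpl41, from -0.024 to 0.40 for Rpl28, from -0.13 to 0.010 for Rps21 and from -0.086 to 0.38 for Rpl13a. It ran from -0.062 to 0.45 for Rplp1, from -0.021 to 0.26 for Rps19, from -0.13 to 0.042 for Rps26, from -0.036 to 0.26 for Rpl11 and from -0.057 to 0.061 for Rps27. It ran from -0.11 to 0.30 for Rpl39, from -0.19 to 0.078 for Rps6, from -0.067 to 0.12 for Rpl22l1, from -0.076 to 0.16 for Rpl10 and from -0.094 to 0.25 for Rpsa. Further values were 0.0044 for Rps27 without number 2, 0.024 for Rps26 without static replicate 3, and -0.039 and 0.11 for Rpl22l1 without static replicates 2 and 3. Values are uncertain where reads are shared with pseudogenes, and unknown depth limits what can be said of low members.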

Other observations

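The kinases that phosphorylate Rps6 and their relatives were measured apart from it. Of 7 tested genes of the ribosomal S6 kinase family other than those of mTORC1, 0 passed limma without the block and 2 fell with it (25.1% of all genes fell), with a median difference of -0.21. With median-ratio scaling added to the block, 1 rose (14.3%, with 19.2% of all genes) and 0 fell (16.8% of all genes fell), so that both falls were lost. Rps6ka1 had 11.8, 18.6 and 19.6 FPKM in FSS replicates 1, 2 and 3, against 17.3, 23.0 and 26.0 FPKM in static ones (limma with the block, adjusted p 0.017), and the groups overlapped. Rps6ka3 had 46.9, 52.2 and 27.5 FPKM under FSS and 60.9, 63.2 and 38.9 FPKM in static cells (limma with the block, adjusted p 0.018), again with overlap. Rps6kb2, an S6 kinase downstream of mTORC1, had 5.01, 5.25 and 5.37 FPKM under FSS and 6.81, 7.20 and 7.57 FPKM in static cells, without overlap (limma, adjusted p 0.19 without the block and 0.015 with it).

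Of 16 tested genes of ribosome rescue and quality control, which clear stalled ribosomes, 0 passed without the block and 1 fell with it (25.1% of all genes fell), with a median difference of -0.080; with median-ratio scaling added 5 rose (19.2% of all genes) and 1 fell. The gene that fell in the block fit was Eif4e2, a cap-binding repressor, at 27.1, 29.8 and 28.0 FPKM under FSS and 33.4, 37.5 and 43.4 FPKM in static cells (limma with the block, adjusted p 0.020).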
